A study of Saccharomyces cerevisiae with 10 samples.

Results

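The standing expression levels of 1 budding yeast strain, the cdc53-1 mutant, were set against those of 4 other temperature-sensitive strains. These were 2 of the 10 arrays of the series, 1 from cells kept at room temperature (25 °C) and 1 from cells moved to 35 °C for 1 h. A gene was taken as outside the range when its level lay above, or below, all 8 arrays of the other strains in both cdc53-1 arrays. By this rule 601 of 5449 measured genes were outside, and 595 without the a-specific mating genes.

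All 5 strains carry a temperature-sensitive allele of an SCF ubiquitin ligase part or its partner enzyme: cdc53-1 (strain py175), cdc34-3 (py24), cdc4-3 (py187), skp1-11 (listed as W303) and skp1-25 (py1374). All grew to mid-log phase in YPDA, an adenine-supplemented rich medium with glucose. Each strain had 1 array per temperature, the labels name no repeated cultures, and an SCF-intact strain is not among those used here. Mating type, ploidy and marker genotype are not in the labels, so a difference of py175 from the rest holds the allele, the strain background and the culture together, and these cannot be told apart.

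CDC53 encodes the cullin scaffold of the SCF, on which SKP1 and an F-box protein such as Cdc4 hold the substrate while Cdc34 supplies the ubiquitin. Budding yeast sets its cell type at the MAT locus on chromosome III. Haploid a cells make the a-specific genes, haploid alpha cells make the alpha-specific genes and repress the a-specific ones through the alpha2 protein, and both make the haploid-specific genes. In a/alpha diploids the a1 and alpha2 proteins together repress the haploid-specific genes, alpha2 keeps the a-specific genes off, and the alpha-specific genes lack their activator.

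Levels are on a log2 scale, so a difference of 1 is a doubling of the level. The levels were compared with limma on the mean of each strain's 2 arrays, cdc53-1 against the 4 others, with p-values adjusted by Benjamini-Hochberg over all 5449 genes and a threshold of 0.05. The cdc53-1 mean has no replicate and is assumed to vary like the other strains. An exact permutation test of a single gene could not go below p = 0.2 with 1 strain of 5.

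In cdc53-1, 24 genes were lower by the limma test, which was 0.44% of the genes tested, and 1 was higher, or 0.0184%. At an unadjusted p under 0.05 there were 574 genes. The calls leaned on having all 4 other strains: without skp1-25 there were 7 lower and 0 higher, without cdc34-3 11 and 2, without cdc4-3 13 and 0, and without skp1-11 15 and 5. Of the 24 lower genes, 6 were a-specific, 12 were haploid-specific, and the other 6 were YNL146C-A, YAR068W, ICS2, RTT107, CLN2 and STE14. The range rule took in more genes: 194 were above, or 3.56%, and 407 were below, or 7.47%. All 25 genes called by limma were also outside the range, but the test and the rule use the same values and neither adds support to the other. Most genes outside the range were only just so, with a median distance of 0.09 to the nearest other array on either side. By the same rule each other strain had 189 (cdc34-3) to 532 (skp1-25) genes outside the arrays of the rest.

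Array medians lay between 10.96 and 11.14. The median difference over all genes was -0.04, and which side held more genes depended on the scaling: 32.3% of the genes outside the range were above as deposited, 58.4% after median centring and 50.6% after quantile normalization. The deviations of the cdc53-1 arrays from the mean of their temperature correlated across genes at r = 0.70, against at most -0.05 with an array of another strain. Over the 5 strains the arrays of the same strain correlated at 0.43 to 0.77, so this is not particular to cdc53-1, and deviations from a shared mean push r between strains below 0. Genes are not independent replicates, and these r values are descriptions.

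The a-specific genes were lower in cdc53-1 than in every other strain, with a single exception. Of 7 measured, 6 were below the range and all 6 passed the test, and the median difference of the list was -4.58. For all genes the shares were 7.47% below and 0.44% called lower. ASG7 lost its call without cdc34-3, without cdc4-3 and at 35 °C alone, and ASG7 and AGA2 lost theirs without skp1-25. STE2, the receptor for alpha-factor, read 7.39 at room temperature and 6.41 at 35 °C, against 12.14, 12.82 and 13.24 (lowest, median and highest of the other 8 arrays). MFA2, a gene for a-factor, was at 6.90 and 6.36 against 12.26 to 13.26, a difference of -6.11 ± 0.12 (SE). The exception was BAR1, the protease that degrades alpha-factor, at 7.91 and 7.64. BAR1 ran from 11.65 to 12.11 in cdc34-3 and skp1-11 but from 7.26 to 7.86 in cdc4-3 and skp1-25, so the other strains themselves fell into separate groups for this gene. Its neighbour on chromosome IX, SNL1, named after its values were seen, was split likewise. SNL1 ran from 10.09 to 11.67 in cdc34-3 and skp1-11 and from 2.56 to 3.54 in cdc4-3 and skp1-25. In cdc53-1 it was at 1.98 and 2.16, below the range by 0.40, and the cause was not tested.

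The alpha-specific genes held no called difference, where 0.44% of all genes were called lower and 0.0184% higher. Of 5 measured, 1 was below the range (7.47% of all genes were), and their median difference was -0.15. STE3, the receptor for a-factor, was at 6.79 and 8.20 in cdc53-1 against 5.92, 6.65 and 8.18. The gene for most of the alpha-factor, MF(ALPHA)1, was at 5.03 and 4.71 against 3.92, 5.14 and 5.76. SAG1, the alpha-agglutinin, was at 9.58 and 9.77 against 9.30, 9.83 and 10.55. AFB1, which encodes the a-factor barrier, was at 7.40 at room temperature and at 9.18 at 35 °C, just under the lowest other array at 9.21. In these bulk samples fewer cells that make a message and less of it per cell cannot be told apart.

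The haploid-specific list had the most members below the range among the 27 gene lists compared. Of 14 measured, 13 were below the range and 12 passed the test, with a median difference of -2.19 (-2.48 at room temperature and -2.04 at 35 °C). For all genes the shares were 7.47% below and 0.44% called lower. Leaving out skp1-25 kept 3 of the 12 calls (FAR1, FUS3 and STE18), leaving out cdc34-3 kept 6, and leaving out cdc4-3 or skp1-11 kept 7 each, with every difference still negative. With strain as a random block 10 of the 12 kept the call, and STE4 and SST2 did not. The list was chosen with earlier results of these data known, so its count is a description and not independent evidence.

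**Figure D1:**
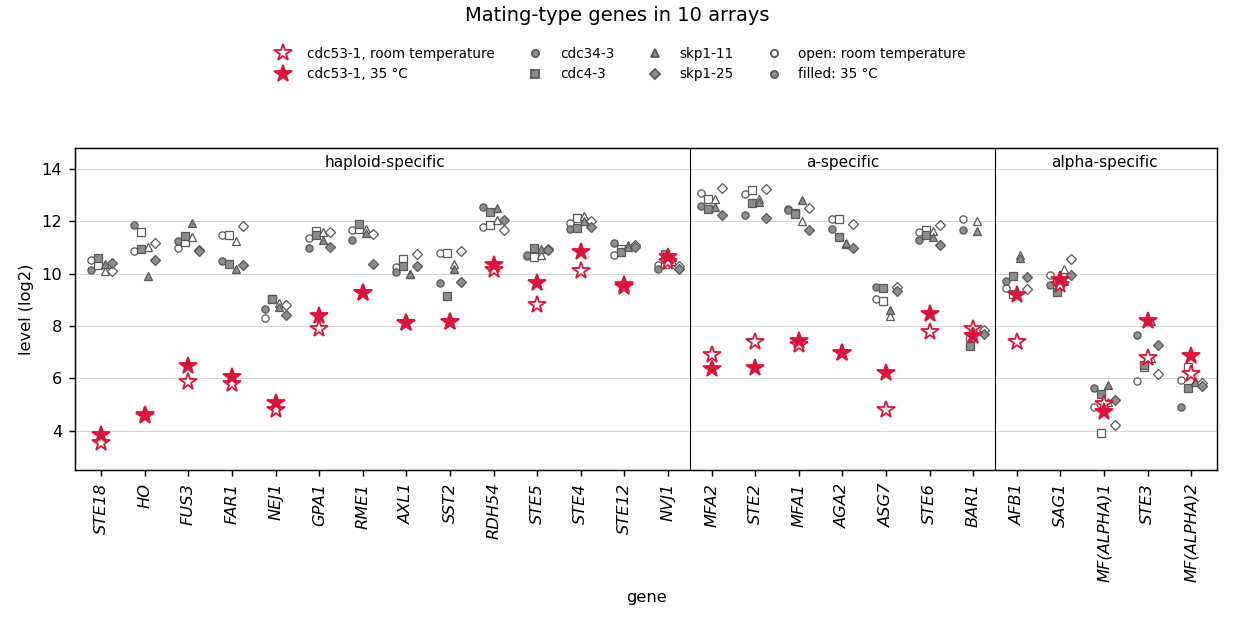
Level (log2) of the haploid-specific, a-specific and alpha-specific genes in each of the 10 arrays, with stars for cdc53-1 and small symbols for the other 4 strains, open at room temperature and filled at 35 °C. Both stars lie under all other symbols for 13 of 14 haploid-specific, 6 of 7 a-specific and 1 of 5 alpha-specific genes. For the alpha-specific STE3 and MF(ALPHA)2 the 35 °C star lies above all other symbols.

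Among these, the genes of all 3 subunits of the pheromone G protein were lower. STE18, the gamma subunit, read 3.53 in the room temperature array of cdc53-1 and 3.84 in its 35 °C array, against 10.10, 10.34 and 10.62 in the other strains. The difference was -6.64 ± 0.14 (SE; limma adjusted p = 0.000143). GPA1, the alpha subunit, was at 7.88 and 8.37 against 11.00, 11.43 and 11.62, with a difference of -3.24 ± 0.18 (adjusted p = 0.00543). STE4, the beta subunit, was at 10.11 and 10.82 against 11.70, 11.96 and 12.21 (-1.47 ± 0.15, adjusted p = 0.043, or 0.0621 with strain as a random block). The groups did not overlap for any of the 3 genes, and cdc53-1 at 35 °C stood nearer to the other strains than cdc53-1 at room temperature did.

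Downstream of the G protein the same held for the scaffold, the last kinase and the transcription factor. FUS3, the MAP kinase of mating, was at 5.88 and 6.47 against 10.89, 11.24 and 11.95 (-5.08 ± 0.30, adjusted p = 0.00681). STE5, the scaffold of the kinase cascade, was at 8.79 and 9.66 against 10.64, 10.82 and 10.98 (-1.59 ± 0.13, adjusted p = 0.0217). STE12, the transcription factor that the cascade activates, was at 9.51 and 9.56 against 10.70, 11.02 and 11.16 (-1.45 ± 0.13, adjusted p = 0.0286). FAR1, which arrests the cell cycle in response to pheromone, was at 5.80 and 6.06 against 10.17, 10.87 and 11.82 (-5.00 ± 0.17, adjusted p = 0.000723). SST2, which turns the G protein off, was at 8.15 and 8.17 against 9.14, 10.28 and 10.89 (-2.03 ± 0.17, adjusted p = 0.0217, or 0.105 with strain as a random block).

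Not every gene of the pathway was low. The upstream kinase STE20 was just below the range with a difference of -0.22, and the kinase STE7 was inside it at -0.20. STE11, the first kinase of the cascade, was above the range at 0.22, as was its adaptor STE50 at 0.31. KSS1, the MAP kinase shared with filamentous growth, was inside at -0.43. None of these 5 genes, named after their values were seen, passed the limma test. STE14, which methylates a-factor and other prenylated proteins, was lower (9.89 and 9.72 against 10.80 to 11.33, adjusted p = 0.0481), though not with any 1 of the other strains left out (0.113 to 0.159). DIG1, an inhibitor of Ste12, was below the range without passing the test (10.72 and 10.59 against 11.30 to 11.56, adjusted p = 0.115).

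Among the genes that pheromone induces, none was called, where 0.44% of all genes were called lower and 0.0184% higher. Of 20 measured, 5 were below the range (7.47% of all genes were), none was above, and the median difference was -0.27. The 5 were FUS1, which acts in cell fusion, PRM4, a pheromone-regulated membrane protein, AGA1, the anchor of the agglutinin, GIC2, an effector of Cdc42, and KAR5, needed for nuclear fusion. FUS1 was at 7.81 and 8.40 against 8.61, 9.07 and 9.96, with differences of -1.86 at room temperature and -0.40 at 35 °C. KAR4, a regulator of nuclear fusion genes, was inside the range at 0.24, though cdc53-1 was its highest strain at each temperature (10.50 against at most 10.41, and 10.25 against at most 10.18 at 35 °C).

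Haploid-specific genes outside mating were low as well. HO, the endonuclease of mating-type switching, was at 4.62 and 4.55 against 9.91, 10.99 and 11.88 (-6.41 ± 0.37, adjusted p = 0.00681). NEJ1, which promotes non-homologous end joining of DNA breaks, was at 4.78 and 5.07 against 8.31, 8.76 and 9.04 (-3.81 ± 0.23, adjusted p = 0.00699). AXL1, needed for axial budding and for a-factor maturation, was at 8.13 and 8.11 against 10.01, 10.27 and 10.76 (-2.16 ± 0.23, adjusted p = 0.0448). RDH54, a recombination helicase, was at 10.14 and 10.35 against 11.67, 12.05 and 12.56 (-1.87 ± 0.19, adjusted p = 0.043). RME1, a repressor of meiosis, was below the range at 9.25 in both arrays against 10.37, 11.61 and 11.89, but its adjusted p was 0.128. NVJ1, of the junction between nucleus and vacuole, was the single measured member inside the range (10.44 and 10.65 against 10.17 to 10.76).

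Among meiotic genes, IME4 stood far above the other strains. IME4, an mRNA methyltransferase needed for meiosis that is made in diploids, was at 9.65 and 9.43 in cdc53-1, against 1.45, 3.95 and 5.44 in the others. Its difference of 5.76 ± 1.29 (SE) did not pass limma (adjusted p = 0.25), and the other 4 strain means spread widely at these low levels (SD 1.5). Of the 16 early meiotic genes, 3 were above the range (3.56% of all genes were) and 1 was below (7.47% of all genes). None was called, where 0.44% of all genes were called lower and 0.0184% higher, and the median difference was 0.29. SPO11, which makes the meiotic DNA breaks, and HOP1, of the chromosome axis, were above by 0.01 and 0.08. The master regulator IME1 was inside the range, at 8.46 and 9.22 against 7.41, 8.62 and 9.23. UME6, which represses early meiotic genes during growth, was below it (9.61 and 9.15 against 9.79, 10.01 and 10.28).

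The sole gene called higher was VBA3, a vacuolar amino acid transporter near the left end of chromosome III. It was at 7.13 at room temperature and 10.50 at 35 °C, against 3.97, 5.22 and 6.02. The difference was 3.59 ± 0.25 (adjusted p = 0.0108). The call was lost without cdc4-3 (adjusted p = 0.0525), without skp1-25 (0.062) and with strain as a random block (0.0994), and at room temperature alone the adjusted p was 0.368. VBA3 is among the dimmest 25% of genes and was not tested where those were left out.

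Above the range, the brighter genes with the widest distance to the other strains included metabolic enzymes and genes of chromosome III. None of the 15 passed limma. ARO9 and ARO10, the transaminase and decarboxylase that break down aromatic amino acids, were both high. ARO10 was at 12.83 and 12.70 against 8.91, 10.33 and 11.85. ARO9 was at 13.02 and 13.01 against 10.60, 11.30 and 12.18. The other strains spread widely for both, with cdc34-3 at 35 °C the highest, and the adjusted p-values were 0.459 for ARO10 and 0.352 for ARO9. ARO8, the other aromatic transaminase, and ARO80, the activator of ARO9 and ARO10, were inside the range, with differences of -0.16 and 0.25. For ARO80, cdc53-1 was still the highest strain at each temperature (10.01 against at most 9.94, and 10.24 against at most 10.12 at 35 °C).

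**Figure D2:**
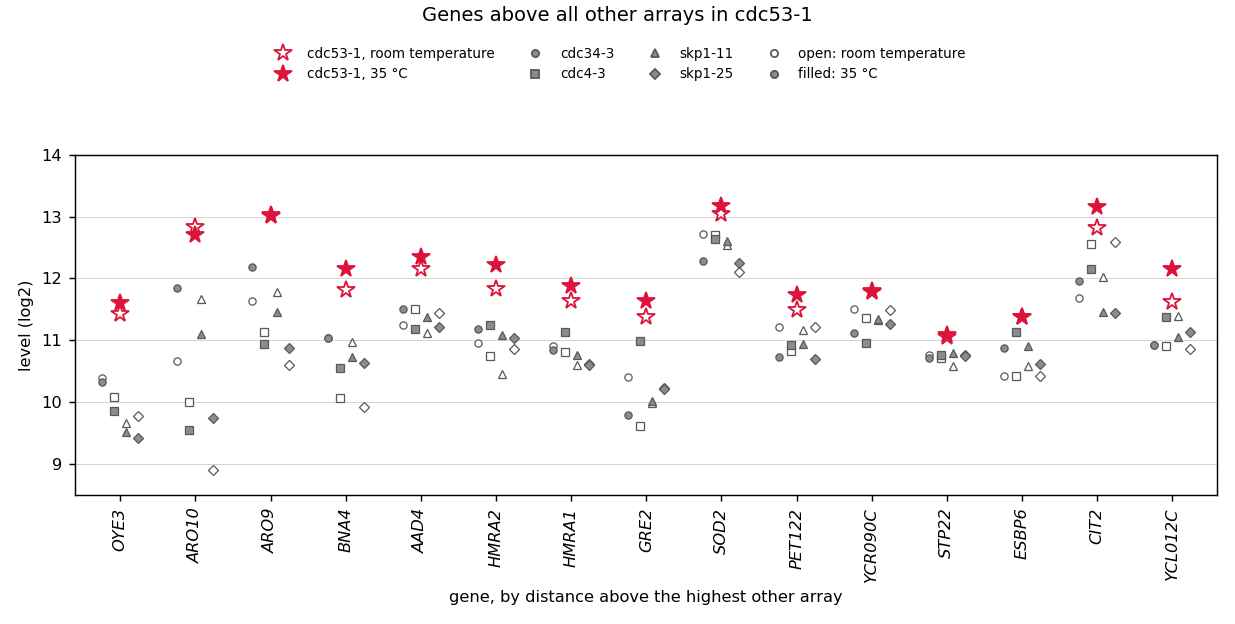
Level (log2) in each of the 10 arrays of the 15 brighter genes with the widest distance above the other strains, stars for cdc53-1 and small symbols for the other 4 strains, open at room temperature and filled at 35 °C. Both stars lie above every other symbol for each gene by construction, and the other strains spread most for ARO10, from 8.91 to 11.85.

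OYE3, an NADPH oxidoreductase of the old yellow enzyme family, had the widest distance of the 15. It was at 11.42 and 11.60 against 9.42, 9.82 and 10.39, whereas its close relative OYE2 was inside the range at -0.12. GRE2, a methylglyoxal reductase, was at 11.37 and 11.64 against 9.61, 10.11 and 10.99 (1.35 ± 0.16, adjusted p = 0.0601). AAD4, of a family of putative aryl-alcohol dehydrogenases, was at 12.15 and 12.34 against 11.12, 11.31 and 11.51 (0.92 ± 0.12, adjusted p = 0.0772). AAD3 and AAD6 were also above, by 0.39 and 0.81, while AAD10 and AAD14 were inside the range. AAD14 had a difference of -0.08. AAD10 had one of 0.95, and cdc53-1 was its highest strain at each temperature (10.53 against at most 10.46, and 12.60 against at most 12.21 at 35 °C). The AAD genes are close copies, and probe sets may read more than 1 of them.

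Other enzymes in this set served NAD synthesis and mitochondria or peroxisomes. BNA4, of the route from tryptophan to NAD, was at 11.81 and 12.16 against 9.92, 10.68 and 11.03. SOD2, the mitochondrial superoxide dismutase, was at 13.04 and 13.17 against 12.11, 12.57 and 12.72. CIT2, the peroxisomal citrate synthase, was at 12.81 and 13.16 against 11.44, 11.99 and 12.59. PET122, a translational activator of a mitochondrial message, and ESBP6, related to monocarboxylate transporters, were higher on average by 0.65 and 0.70.

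Of the 15 genes, 6 lay on chromosome III, among them HMRA1 and HMRA2 of the silent mating-type locus. HMRA2 was at 11.83 and 12.22 against 10.46, 11.00 and 11.25 (1.08 ± 0.15, adjusted p = 0.111). HMRA1 was at 11.64 and 11.88 against 10.60, 10.78 and 11.13 (0.98 ± 0.18, adjusted p = 0.178). These sequences recur at MAT, so the arrays cannot say which copy was read or which allele MAT holds. HMLALPHA1, which has the sequence of the alpha1 activator gene, was dim in every array, at 3.71 and 4.20 against 1.56, 3.23 and 3.68.

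Chromosome III as a whole was higher in cdc53-1. Of its 148 measured genes, 37 were above the range (25%) against 157 of the 5301 other genes (2.96%), and 4 were below. The median difference of its genes was 0.21, or 0.25 relative to all other genes, a ratio of 1.19, and 111 of the 148 had a higher mean. Leaving out each other strain in turn gave 0.18 to 0.23. The other 15 chromosomes of cdc53-1 had medians from -0.07 to 0.0, and those of the other strains ran from -0.09 to 0.06. Relative to other genes, chromosome III stood at 0.23 in the room temperature array and 0.25 in the 35 °C array of cdc53-1, and from -0.10 to -0.03 in the other 8 arrays. Each other strain was set against a mean that includes cdc53-1, so a rise in cdc53-1 by itself pushes those 8 values below 0. The contrast between chromosome III and the other genes was not tested, and DNA copy number was not measured.

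**Figure D3:**
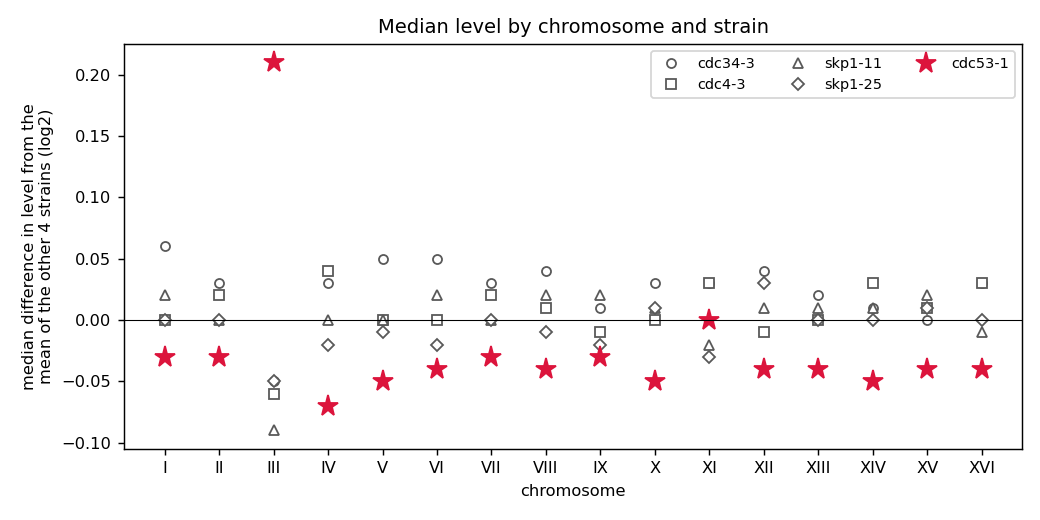
Median difference in level (log2) of the genes of each chromosome, each strain against the mean of the other 4, with stars for cdc53-1. Chromosome III in cdc53-1 is at 0.21, and every other point lies between -0.09 and 0.06. The means used for the other strains include cdc53-1, which lowers their chromosome III points.

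The difference ran along the chromosome rather than sitting in 1 stretch. In chromosomal order the left, middle and right portions of 50, 49 and 49 genes, from GEX1 to SGF29, from ILV6 to IMG1 and from BUD23 to YCR108C, had medians of 0.22, 0.21 and 0.21, with 15, 9 and 13 genes above the range. The 5 largest positive differences were at the ends (VBA3 and YCL068C on the left, YCR099C, YCR101C and YCR108C on the right), while YCL021W-A, at -2.13, lies inside. Without the 10 outermost genes at each end the median was 0.19 with 27 of 128 genes above, and among the 109 genes that were not in the dimmest 25% of all genes it was 0.15 with 20 above. The 4 genes below the range were FUS1, SRO9, SRD1 and YCL021W-A, and VBA3 was the only gene of the chromosome that passed limma.

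**Figure D4:**
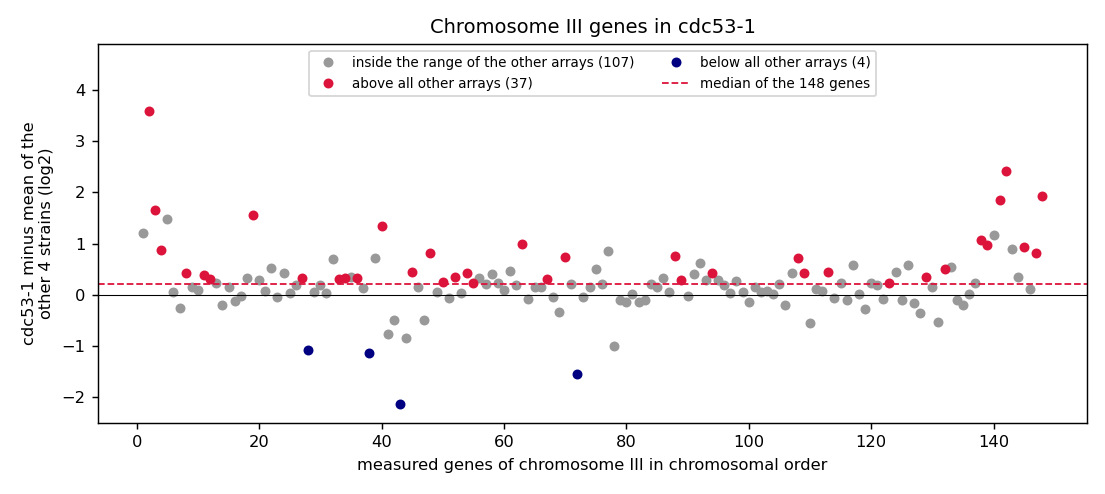
Difference in level (log2) between cdc53-1 and the mean of the other 4 strains for the 148 measured genes of chromosome III in chromosomal order, not to scale in bases, coloured by position against the range of the other arrays. The dashed line is the median of 0.21, and the 37 genes above the range occur from end to end.

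Neighbouring genes outside the range in the same direction formed 3 runs of 3 or more. On chromosome III, VBA3, YCL068C and HMLALPHA1 were above. On chromosome VII, COS12, YGL262W, YPS5 and YGL258W-A were above, each by at most 0.32. COS12 was at 10.76 and 10.96 in cdc53-1 against 10.16 for the median of the others and 4.27 and 2.99 in skp1-11, and its mean difference of 2.29 includes skp1-11. On chromosome IV, MSC2, EBS1 and UME6 were below, by 0.05, 0.03 and 0.19.

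Below the range and outside mating, the called genes included a pair tied to the cell cycle and DNA damage. CLN2, a G1 cyclin, was at 10.79 at room temperature and 9.12 at 35 °C against 11.08, 11.57 and 12.51 (-1.73 ± 0.17, adjusted p = 0.0399). At room temperature alone its adjusted p was 0.942. RTT107, a scaffold of DNA repair, was at 9.53 and 8.43 against 10.46, 10.67 and 11.45 (-1.77 ± 0.17, adjusted p = 0.0368). For both genes the 35 °C array was the lower of the cdc53-1 arrays. Of the unnamed reading frames, YNL146C-A was at 5.40 and 5.83 against 8.90, 9.42 and 9.97 (adjusted p = 0.0178), and it lies beside MFA2 on chromosome XIV. ICS2 and YAR068W were lower by a mean difference of -2.03 and -2.39, with adjusted p = 0.0383 and 0.0448. Leaving out any 1 of the other 4 strains ended the calls of CLN2, RTT107, ICS2 and YAR068W, with adjusted p from 0.0504 (YAR068W without cdc4-3) to 0.204 (YAR068W without skp1-25). With strain as a random block the calls of CLN2 (0.427), RTT107 (0.217) and ICS2 (0.117) were also lost. YNL146C-A was not called without cdc34-3 (adjusted p = 0.103) or skp1-25 (0.101).

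URA3, of pyrimidine synthesis and a common marker in laboratory strains, was below the range at 9.37 and 10.10 against 10.86, 11.64 and 13.30. ADE2, another marker, was just above it at 12.91 and 12.94 against 9.69, 12.31 and 12.86, and skp1-11 was the low strain. Over the 12 measured marker genes, 1 was above (3.56% of all genes were), 1 was below (7.47% of all genes) and none was called (0.44% of all genes lower, 0.0184% higher). SRD1, YCL021W-A, YBL005W-A, YBL100W-A and YAR010C were below with mean differences from -2.13 to -1.05, and YAR010C came nearest to a call (12.70 and 13.16 against 13.72, 14 and 14.21, adjusted p = 0.0612).

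Of 16 measured genes of budding and polarity, 5 were below the range, 1 was above, and 1, AXL1, was called. Over all genes the shares were 7.47% below, 3.56% above and 0.44% called lower. The median difference of the list was -0.45, and 15 of its 16 means were lower, as were 3093 of 5449 over all genes. AXL2, the landmark of axial budding, was at 10.44 and 10.01 against 11.07, 11.64 and 12.49 (adjusted p = 0.195). RAX2, a landmark of bipolar budding, was at 10.09 and 9.78 against 10.44, 10.98 and 11.36. GIC2 was at 11.05 and 9.83 against 11.63, 12 and 12.85, and RSR1, the bud-site GTPase, was below by 0.03. BUD5, the exchange factor of Rsr1 and a chromosome III gene, was the member above, by 0.08.

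Of 18 SCF genes, none was called, 1 was above the range and 1 was below. Over all genes 0.44% were called lower, 0.0184% called higher, 3.56% were above and 7.47% below. CDC53 was at 11.81 and 11.47 against 11.15, 11.57 and 11.94, a difference of 0.08 ± 0.15 (adjusted p = 0.887), which says nothing of the mutant protein. RUB1, the ubiquitin-like protein that modifies the cullin, was above the range by 0.09, and the F-box gene GRR1 was below it by 0.08.

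The medians of some lists were farther from 0 in the 35 °C array than in the room temperature array, which was not tested with 1 array each. The G1/S genes driven by SBF and MBF had a median difference of 0.02 at room temperature and -1.36 at 35 °C. Of 28 measured, 6 were below the range (HO, CLN2, PCL1, CDC9, RAD27 and POL30) and 2, HO and CLN2, were called, against 7.47% below and 0.44% called lower over all genes. HO was about as low at both temperatures (-6.55 and -6.26). The 7 histone genes were at 0.06 and -0.72, with none outside the range. PCL1, another G1 cyclin, was at 11.09 at room temperature and 9.05 at 35 °C against 11.17 for the lowest other array. The CLB2 cluster of mitotic genes had medians of -0.23 and -0.54, with none of 16 called or outside the range. Its median over both temperatures was -0.46, and -0.30 without skp1-25, the highest strain on this list at 0.68.

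**Figure D5:**
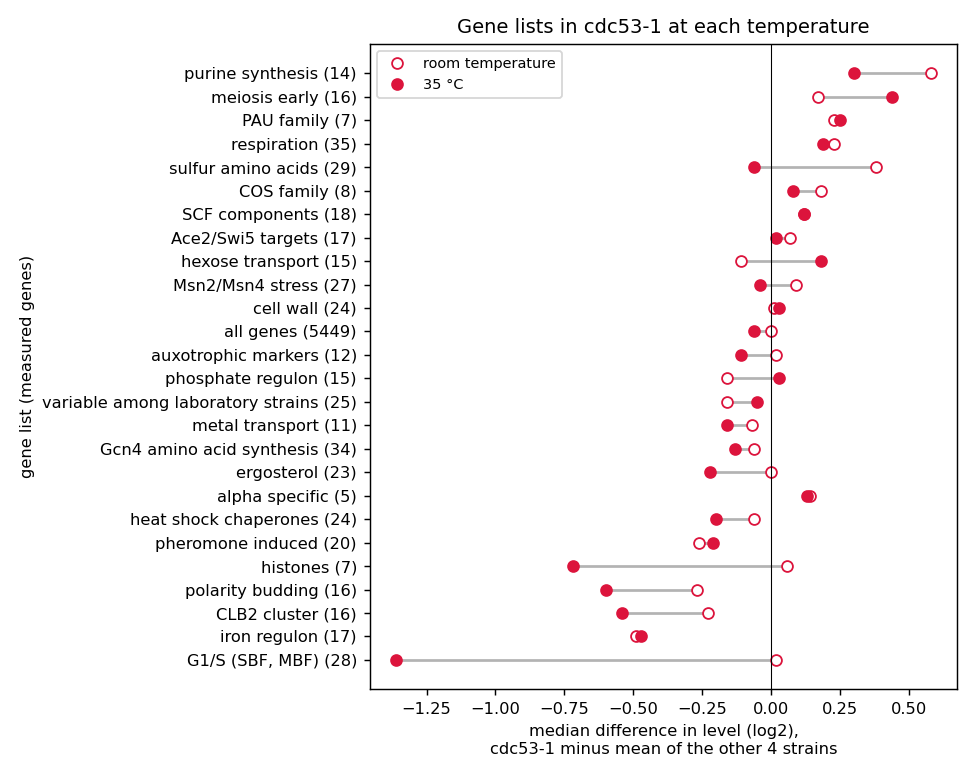
Median difference in level (log2) of each gene list between cdc53-1 and the mean of the other 4 strains, open circles at room temperature and filled at 35 °C, with the number of measured genes in brackets and the a-specific and haploid-specific lists left out for scale. The G1/S list goes from 0.02 to -1.36 and the histones from 0.06 to -0.72.

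None of the genes in the lists of metabolism and transport was called. Over all genes 0.44% were called lower and 0.0184% higher, and 3.56% were above the range and 7.47% below it. The metal transport list of 11 genes had a median difference of -0.09, with 1 above the range (SMF1, a manganese transporter). The 3 below, by 0.04 or less, were SMF2, PHO84 and ADH4, an alcohol dehydrogenase gene. The 14 purine synthesis genes had a median of 0.46 and 2 above, ADE2 and ADE8, while skp1-11 was the lowest strain on this list at -0.71, and without it the median was 0.30. Of the 35 respiration genes, 34 had a higher mean, as did 2355 of all 5449 genes, the median was 0.22, and COX8 and COX9 were above by 0.02 and 0.03, with skp1-25 the lowest strain at -0.54. Without skp1-25 the respiration median was 0.10. The 17 iron genes had a median of -0.59 with FTR1 and TIS11 below the range, while skp1-25 was high at 1.34 and skp1-11 was at -0.75. Without skp1-25 the iron median was -0.28. TIS11, which destabilises messages when iron is scarce, was at 8.68 and 8.91 against 9.5, 10.15 and 11.84. Sulfur amino acid genes had a median of 0.15, with none of 29 outside the range, and their sign differed between the temperatures (0.38 and -0.06).

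Among dim genes, chosen after their values were seen, YDR034C-A was at 8.44 and 8.47 against 4.54, 5.33 and 6.02 (adjusted p = 0.0602). DDI3 was at 9.69 and 10.58 against 6.54, 7.54 and 8.38, and it has a near-identical copy that the probe set may also read. The dimmest 25% of genes held 36.1% of the genes above the range and 21.1% of those below. At the edge of the rule, PTH1 was above by 0.001 and DYN2 was inside, and ADH4 was below by 0.001 and GIS4 was inside.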

How the data were processed

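The deposited values were read as log2 from their range, since the labels state no base. How probes were summarised, background-corrected and normalized is not given in the sources used here. RNA was labelled as biotin cRNA for Affymetrix arrays, per the labels' protocols, and the number of arrays limits the precision. Of 5716 probe sets, 5498 had 1 gene symbol in the platform annotation, 0 had several and 218 were unnamed. RefSeq names changed 12 symbols. For 47 genes with several probe sets the brightest was taken, which left 5449 genes. The refseq gene table (assembly R64) gave names, chromosomes and gene order only.

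Strain means were compared using limma 3.58.1 under R 4.3.3 (lmFit, eBayes, two-sided, residual degrees of freedom 3). The estimate equals that with temperature as a block. p-values measure the spread between strains. Tested on simulated data with 200 changed genes of 5449, the fit recovered 3.7%, 49%, 80.4% and 96.6% of changes of 0.5, 1, 2 and 4 log2 units, and 5.74% of calls were false. There every strain mean, cdc53-1 included, was drawn from each gene's mean and spread over the 4 other strains, with genes independent. The simulation thus builds in that cdc53-1 varies like the others, and its false share cannot check that assumption.

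The 27 gene lists and the rules were chosen with earlier results of these data known. Genes were named as the 15 with the widest distance on each side of the range (a-specific genes left out, mean in the brighter group above the median gene), up to 4 per list by size of difference with the mating-type, marker and SCF lists always eligible, all members of runs, and the genes at the edge. Other called genes, list members outside the range, relatives of named genes and genes of the pathway were named after their values were seen. Alternatives were arrays as independent or strain as a random block, each temperature alone, median centring, quantile normalization, the dimmest 25% left out, the mean of probe sets, and each other strain left out. Chosen after seeing the data were the counts without chromosome III, its median without its ends, its dim genes or each other strain and relative to the other genes, and the G1/S list without HO.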

Additional observations from a re-analysis of the deposited data

Results flagged for a closer look

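For 11 of 173 named genes, 1 of the other 4 strains stood apart from the rest of those 4 by the ratio of its gap to the whole range (Dixon's 95% test), where chance gives about 1 in 20. The strain skp1-11 was high for AFB1 (ratio 0.934), DCN1 (0.884) and HXT9 (0.897), and low for CAN1 (0.8293), COS12 (0.897), RED1 (0.936) and YGL262W (0.922). The strain skp1-25 was high for PRM4 (0.941) and for SKP1 (0.843), its own mutated gene, and low for MEK1 (0.897). The strain cdc4-3 was high for the chaperone cofactor AHA1 (0.8305). A count of 11 in 173 is not far from the share that chance gives, so some of these genes may be flagged by chance. CAN1 and AHA1 had the lowest ratios of the 11 and only just passed. In these arrays the mean of the other strains for the 11 genes, and so the cdc53-1 difference, rests partly on 1 strain. Whether that strain truly differs was not tested further.

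For 4 named genes, cdc53-1 stood above each of the other 4 strains at room temperature and below each of them at 35 °C, with 1 array each, so the difference between temperatures was not tested. The change in the difference was -0.96 for the histone gene HHF1, -0.76 for HHT1, -1.9 for YHP1, a repressor of early cell cycle genes, and -1.96 for MUP3, a methionine permease.

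Of the 218 probe sets with no gene name, 17 were above the range (7.8%) and 15 were below (6.88%), in cdc53-1. Over the named genes the shares were 3.56% above and 7.47% below.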

How the results depend on the processing

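Calls by limma as higher and lower (1 and 24) became 4 and 29 with strain as a random block, 25 and 56 with arrays as independent, 2 and 11 at 35 °C alone, 4 and 23 after median centring, 5 and 24 after quantile normalization, 1 and 15 without the dimmest 25%, and 2 and 24 with the mean of probe sets. Leaving out 1 strain gave 0 to 5 higher and 7 (without skp1-25) to 15 lower, where fewer strains were fitted; there were 0 higher without cdc4-3 or skp1-25, 13 lower without cdc4-3 and 11 without cdc34-3. FAR1, FUS3, MFA1, MFA2, STE18, STE2 and STE6 were called under every setting that tested them; FAR1 and STE18 were not tested without the dimmest 25%. Of 173 named genes none reversed under the blocks, scalings or left-out strains (temperatures alone were not among these), and 7 to 14 calls were lost with 1 strain left out. Genes above and below the range (194 and 407) were 470 and 757 within each temperature, 16 and 52 with a margin of 0.5, 5 and 22 with a margin of 1, 337 and 240 after median centring, 292 and 285 after quantile normalization, and 124 above without the dimmest 25%. With 1 strain left out they were 232 to 376 above, the most without cdc4-3, and 487 to 591 below.

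The haploid-specific median was -2.48 at room temperature, -2.04 at 35 °C and -2.23 to -2.11 with 1 strain left out. Chromosome III was at 0.27 after median centring, 0.24 after quantile normalization, 0.18 at 35 °C, 0.18 to 0.23 with 1 strain left out, 0.25 relative to other genes, 0.15 without dim genes and 0.19 without its ends. List medians that changed sign were the alpha-specific list (0.14 at room temperature, 0.13 at 35 °C), G1/S (0.02) and histones (0.06) at room temperature, ergosterol (0.0 at room temperature), and sulfur amino acids (-0.06 at 35 °C, -0.01 to 0.2 with 1 strain left out, the lowest without cdc4-3). Where no reason is given, the cause was not tested. In the simulated data, where cdc53-1 was made to vary like the other strains, differences under about 1 log2 unit were seldom recovered with 5 strain means. There 3.7% were recovered at 0.5 and 49% at 1.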
